A study of Drosophila melanogaster with 10 samples.

Results

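The genes described here encode the machinery that licenses replication origins in Drosophila melanogaster and copies DNA at the fork, together with a few regulators that control their expression. They form a list of 40 genes named by function: subunits of the origin recognition complex, the helicase loaders, the MCM helicase and its activators, the replicative polymerases, the sliding clamp and its loader, other fork proteins, and regulators of the E2F and Rbf pathway. Each was matched, by symbol or synonym, to probe sets carrying a single gene symbol. Of the 40 genes, 34 had exactly 1 such probe set, among 11982 genes named on the array. Orc6, geminin, Mcm7, PolD1, E2f1 and dap had none and were not analysed here.

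Origins are licensed in G1, when the origin recognition complex, Cdc6 and the Cdt1 homologue Dup load the MCM helicase onto DNA. In S phase Cdc45 and the GINS complex join the MCM ring to form the active helicase, primase with polymerase alpha starts each strand, and polymerases delta and epsilon extend it while held by the PCNA clamp. The clamp is placed on DNA by the RFC loader, RPA covers single-stranded DNA, and Fen1 trims the ends of lagging-strand fragments. In flies many of these genes are transcribed under E2F with its partner Dp, and Rbf, the retinoblastoma homologue, represses them.

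RNA was measured on 10 Affymetrix arrays of S2 cells, an embryonic line with haemocyte-like properties. Per the design text, knockdown of SLIMP, an insect mitochondrial relative of seryl-tRNA synthetase, was switched on with CuSO4 in stable lines. Phases were separated by flow sorting on the DNA content of living cells, each sample used RNA of 25000 cells, and amplification ran for 15 cycles. The groups were G1 control (n = 3), G2/M control (n = 3), G1 SLIMP knockdown (n = 2) and G2/M SLIMP knockdown (n = 2). Control cells carry the genotype label WT, and the labels do not say whether they received copper or whether a line was clonal. An S-phase fraction was not analysed here. A culture below means the G1 and G2/M arrays that share a genotype label and a replicate number. There were 5 cultures, and lists of 5 values run in the order control 1, control 2, control 3, knockdown 2 and knockdown 3. Values are log2 signals, where 1 unit is a 2-fold change of signal, and they do not allow levels to be compared between genes.

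The genotype labels were not borne out by the target. Slimp read 8.80, 8.95, 12.55, 12.59 and 8.68 in G1 and 8.90, 9.06, 12.51, 12.53 and 8.97 in G2/M, so the culture labelled control 3 resembled knockdown 2 and the culture labelled knockdown 3 resembled control 1 and control 2. No direction of a SLIMP effect is drawn from the labels for this reason. The phase labels matched the mitotic genes examined, a list of 11 chosen with earlier results of these data known. All 7 that were measured were higher in G2/M than in G1, by a median of 1.06 (log2). In each of them every G2/M array lay above every G1 array, as in 6.01% of all probe sets. All 10 haemocyte markers lay above the array median on every array. Of 14 markers of germline, muscle, neurons, fat body and follicle cells, 8 were measured and 4 lay above it (bam, elav, nSyb and brp).

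From G1 to G2/M the replication genes moved mostly upward. Of the 34 measured, 18 rose, 1 fell and 15 did not pass, with culture as a block in limma and adjusted p under 0.05 over all 18769 probe sets. Over all probe sets 10.3% rose and 9.00% fell in the same fit. The median difference was 0.32 (log2) over the 34 genes, against 0.00 over all probe sets, and the estimates ran from -0.28 for PCNA to 1.41 for RfC3. In 20 genes G2/M was the higher phase in 5 of 5 cultures, as it was in 15.7% of all probe sets. In 4 genes, RfC3, Orc5, Psf2 and RfC4, every G2/M array lay above every G1 array, which held for 6.01% of all probe sets. Only RfC3, Orc5, Cdc6, PolA2 and Mcm5 changed by more than 1.5-fold. The mitotic genes had a median difference of 1.06 on the log2 scale.

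Of the 19 genes that passed, 13 passed in each of the 5 fits that left out 1 culture. For all probe sets this share was not counted, so 13 of 19 cannot be set against a general rate. Leaving out control 1, control 2 or knockdown 3 lowered the count to 13 each time, against 2626, 2189 and 2413 of all 18769 probe sets. Leaving out control 3 or knockdown 2 gave 19 and 20, against 3414 and 3134. Without the cultures labelled control 3 and knockdown 3 the count was 8, against 1586 of all probe sets. Without control 3 and knockdown 2 it was 23, against 3664. The fit of all 5 cultures called 3623 of all probe sets. Without the block, which leaves the estimates unchanged, 4 genes passed (Orc5, Psf2, RfC3 and RfC4), against 5.22% of all probe sets, 3.40% higher and 1.82% lower in G2/M. In these sorted bulk samples, a smaller share of cells with a transcript and less of it per cell cannot be told apart.

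**Figure D1:**
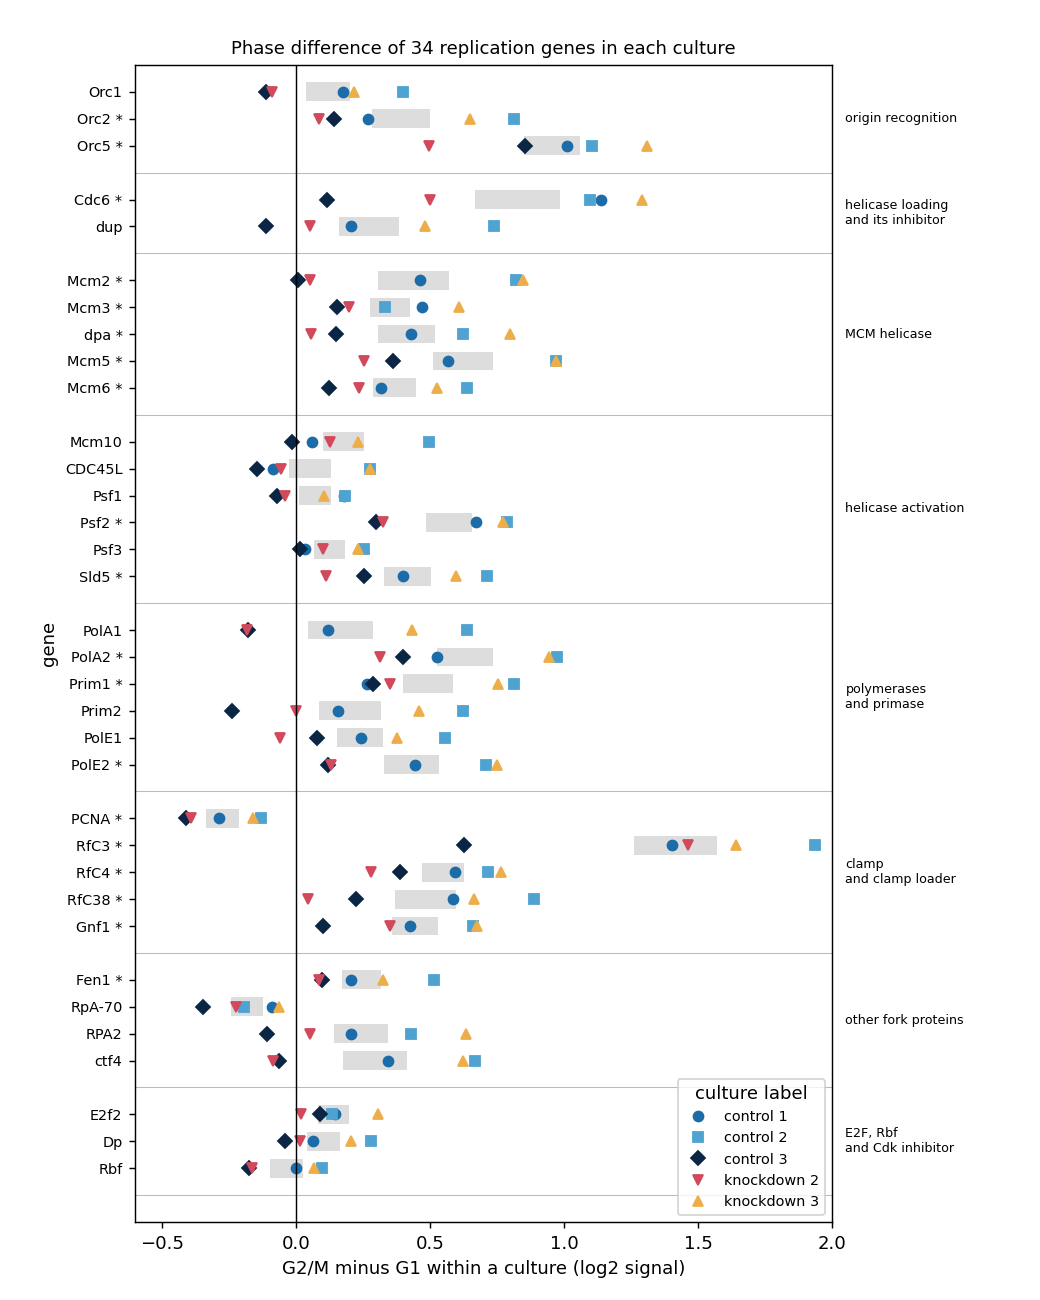
G2/M minus G1 signal (log2, x axis) of each of the 34 replication genes (y axis, by class), with 1 symbol per culture, grey bars for the mean over cultures ± SE, and an asterisk for adjusted p under 0.05. Symbols of control 3 and knockdown 2 lie to the left of most others, RfC3 reaches 1.94 in control 2, and all 5 symbols of PCNA lie below 0.

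In the origin recognition complex, which marks origins and recruits the loaders, 2 of 3 measured subunits rose. Orc5 read 7.05, 6.92, 6.86, 6.90 and 6.97 in G1 and 8.07, 8.02, 7.72, 7.39 and 8.28 in G2/M. Every culture was higher in G2/M, and the lowest G2/M array, that of knockdown 2, still lay above the highest G1 array. The difference was 0.95 ± 0.10 (SE), or 1.94-fold, with an adjusted p of 0.000711 in limma. Orc2 read 6.45, 6.32, 6.30, 6.50 and 6.34 in G1 and 6.72, 7.13, 6.44, 6.59 and 6.99 in G2/M, so the phases overlapped, with small differences in control 3 and knockdown 2. It rose by 0.39 ± 0.11 (SE), with an adjusted p of 0.0354 in limma that did not hold in 3 of the 5 fits without 1 culture. Its G1 arrays and the G2/M array of control 3 lay below every array median (6.55 to 6.61). Orc1, an ATPase subunit, differed by 0.12 ± 0.08 (SE) and did not pass. It was higher in G2/M in 3 cultures and lower in control 3 (-0.11) and knockdown 2 (-0.09).

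The helicase loaders Cdc6 and dup, the Cdt1 gene, are the factors that close MCM rings around DNA. Cdc6 read 6.54, 7.01, 6.90, 6.80 and 6.30 in G1 and 7.68, 8.11, 7.01, 7.30 and 7.59 in G2/M. Its differences exceeded 1 in control 1, control 2 and knockdown 3 and were 0.12 in control 3 and 0.50 in knockdown 2. Cdc6 rose 1.78-fold over the 5 cultures (0.83 ± 0.16 (SE), adjusted p = 0.00741 in limma). For dup the arrays read 10.07, 9.78, 9.85, 9.90 and 9.83 in G1 and 10.28, 10.52, 9.74, 9.95 and 10.31 in G2/M. The difference of 0.27 ± 0.11 (SE) did not pass (adjusted p = 0.137 in limma), and control 3 had the opposite sign.

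All 5 measured genes of the MCM ring, the motor of the replicative helicase, rose, by 0.35 to 0.62 (log2). Mcm5 moved most and read 9.47, 9.44, 8.82, 9.26 and 9.17 in G1 and 10.04, 10.41, 9.18, 9.52 and 10.14 in G2/M. The G1 arrays of control 1, control 2 and knockdown 2 lay above the G2/M array of control 3, so the phases overlapped although 5 of 5 cultures were higher in G2/M. Its difference was 0.62 ± 0.11 (SE), or 1.54-fold, with an adjusted p of 0.00555 in limma. Mcm2 read 9.05, 9.00, 8.62, 8.91 and 8.59 in G1 and 9.52, 9.81, 8.63, 8.97 and 9.44 in G2/M. It rose by 0.44 ± 0.13 (SE) (adjusted p = 0.0479 in limma), with differences of 0.01 in control 3 and 0.05 in knockdown 2. The Mcm4 gene dpa read 9.39, 9.33, 9.23, 9.30 and 9.17 in G1 and 9.82, 9.95, 9.37, 9.35 and 9.97 in G2/M, a rise of 0.41 ± 0.11 (SE) (adjusted p = 0.0264).

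Mcm3 and Mcm6 completed the measured ring. Mcm3 read 7.96, 8.08, 7.73, 7.76 and 7.87 in G1 and 8.43, 8.42, 7.88, 7.95 and 8.47 in G2/M, and Mcm6 read 9.99, 9.78, 9.59, 9.58 and 9.83 in G1 and 10.31, 10.41, 9.71, 9.82 and 10.36 in G2/M. In both genes the G2/M arrays of control 3 and knockdown 2 lay below every G2/M array of the other cultures. Mcm3 rose 1.28-fold (adjusted p = 0.0115 in limma) and Mcm6 1.29-fold (adjusted p = 0.0129). Mcm3, Mcm5 and Mcm6 passed in each fit without 1 culture, while Mcm2 and dpa passed in 2 of the 5.

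Among the 6 helicase activators, which turn a loaded MCM ring into an unwinding helicase, the GINS genes Psf2 and Sld5 rose and 4 genes did not pass. Psf2 read 8.21, 8.16, 8.36, 8.18 and 8.29 in G1 and 8.89, 8.95, 8.66, 8.51 and 9.06 in G2/M. All G2/M arrays lay above all G1 arrays, and the rise was 0.57 ± 0.09 (SE), or 1.49-fold (adjusted p = 0.00276 in limma). Sld5 read 8.85, 8.49, 8.60, 8.53 and 8.72 in G1 and 9.25, 9.20, 8.85, 8.64 and 9.31 in G2/M, and its G2/M array in knockdown 2 lay below the G1 arrays of control 1 and knockdown 3. It rose by 0.42 ± 0.09 (SE) (adjusted p = 0.0117 in limma). The other two GINS genes gave 0.07 for Psf1 and 0.13 for Psf3, CDC45L, the Cdc45 gene, gave 0.05 and Mcm10, which helps to activate the helicase, 0.18, each with an adjusted p of at least 0.149 in limma. The 4 subunits of GINS thus had differences from 0.07 to 0.57 (log2), and the spread among subunits was not tested.

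Of 6 measured polymerase and primase genes, PolA2, Prim1 and PolE2 rose. PolA2, the regulatory subunit of polymerase alpha, read 8.03, 7.90, 7.39, 7.64 and 7.59 in G1 and 8.55, 8.87, 7.79, 7.96 and 8.53 in G2/M. It was higher in G2/M in every culture and rose by 0.63 ± 0.10 (SE) or 1.55-fold (adjusted p = 0.00398 in limma). The primase subunit Prim1 read 7.38, 7.23, 6.53, 6.91 and 6.94 in G1 and 7.64, 8.04, 6.82, 7.26 and 7.69 in G2/M, with G2/M in control 3 below 4 of the 5 G1 arrays. Its rise was 0.49 ± 0.09 (SE) (adjusted p = 0.00707 in limma). PolE2, a small subunit of polymerase epsilon, read 8.39, 8.57, 7.75, 8.18 and 8.18 in G1 and 8.84, 9.28, 7.87, 8.31 and 8.93 in G2/M, where both arrays of control 3 lay below all others. It rose by 0.43 ± 0.10 (SE) (adjusted p = 0.0195 in limma), with 0.12 in control 3 and 0.75 in knockdown 3, and passed in 2 of the 5 fits without 1 culture.

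The other three did not pass. PolE1, the catalytic subunit of polymerase epsilon, read 9.76, 9.75, 9.07, 9.45 and 9.58 in G1 and 10.01, 10.31, 9.14, 9.39 and 9.96 in G2/M. Its difference was 0.24 ± 0.09 (SE) (adjusted p = 0.0956 in limma), higher in G2/M in 4 of 5 cultures. PolA1, the catalytic subunit of polymerase alpha, gave 0.12, 0.64, -0.18, -0.18 and 0.43 in the 5 cultures, a mean of 0.17 ± 0.12 (SE) (adjusted p = 0.413 in limma). The larger primase subunit Prim2 gave 0.20 (adjusted p = 0.285 in limma), with control 3 at -0.24. Each of the 3 genes had at least 1 culture that was lower in G2/M.

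In the last class of core fork proteins, the clamp and its loader, 4 loader genes rose and the clamp gene fell. RfC3, a small ATPase subunit of the loader, read 7.68, 7.14, 7.88, 7.08 and 7.50 in G1 and 9.08, 9.08, 8.50, 8.54 and 9.14 in G2/M. Every culture was higher in G2/M, with 1.40, 1.94, 0.63, 1.46 and 1.64 in the 5 cultures, and control 3 had both the highest G1 and the lowest G2/M array. Its G1 arrays averaged 7.45 ± 0.34 (SD, n = 5) and its G2/M arrays 8.87 ± 0.32 (SD, n = 5). The rise of 2.67-fold (1.41 ± 0.16 (SE), adjusted p = 0.000738 in limma) was the largest among the 34 genes. RfC4 read 11.00, 10.91, 10.99, 11.15 and 10.84 in G1 and 11.59, 11.63, 11.38, 11.43 and 11.60 in G2/M. Its phases did not overlap, and it rose 1.46-fold (0.55 ± 0.08 (SE), adjusted p = 0.00213 in limma).

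Gnf1, the large subunit of the loader, read 9.77, 9.55, 9.49, 9.37 and 9.57 in G1 and 10.20, 10.21, 9.59, 9.72 and 10.25 in G2/M. It rose 1.36-fold (adjusted p = 0.00790 in limma), least in control 3. RfC38 read 8.67, 8.58, 8.26, 8.60 and 8.51 in G1 and 9.25, 9.47, 8.49, 8.65 and 9.17 in G2/M, a rise of 0.48 ± 0.11 (SE) (adjusted p = 0.0183 in limma) with 0.04 in knockdown 2, which passed in 2 of the 5 fits without 1 culture. PCNA, the clamp that these proteins load, went the other way. Its arrays read 11.52, 11.60, 11.18, 11.34 and 11.33 in G1 and 11.23, 11.47, 10.77, 10.95 and 11.17 in G2/M, and 5 of 5 cultures were lower in G2/M. PCNA fell by 0.28 on the log2 scale (-0.28 ± 0.06 (SE), adjusted p = 0.0143 in limma). The fall was deepest in control 3 (-0.41) and knockdown 2 (-0.39).

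**Figure D2:**
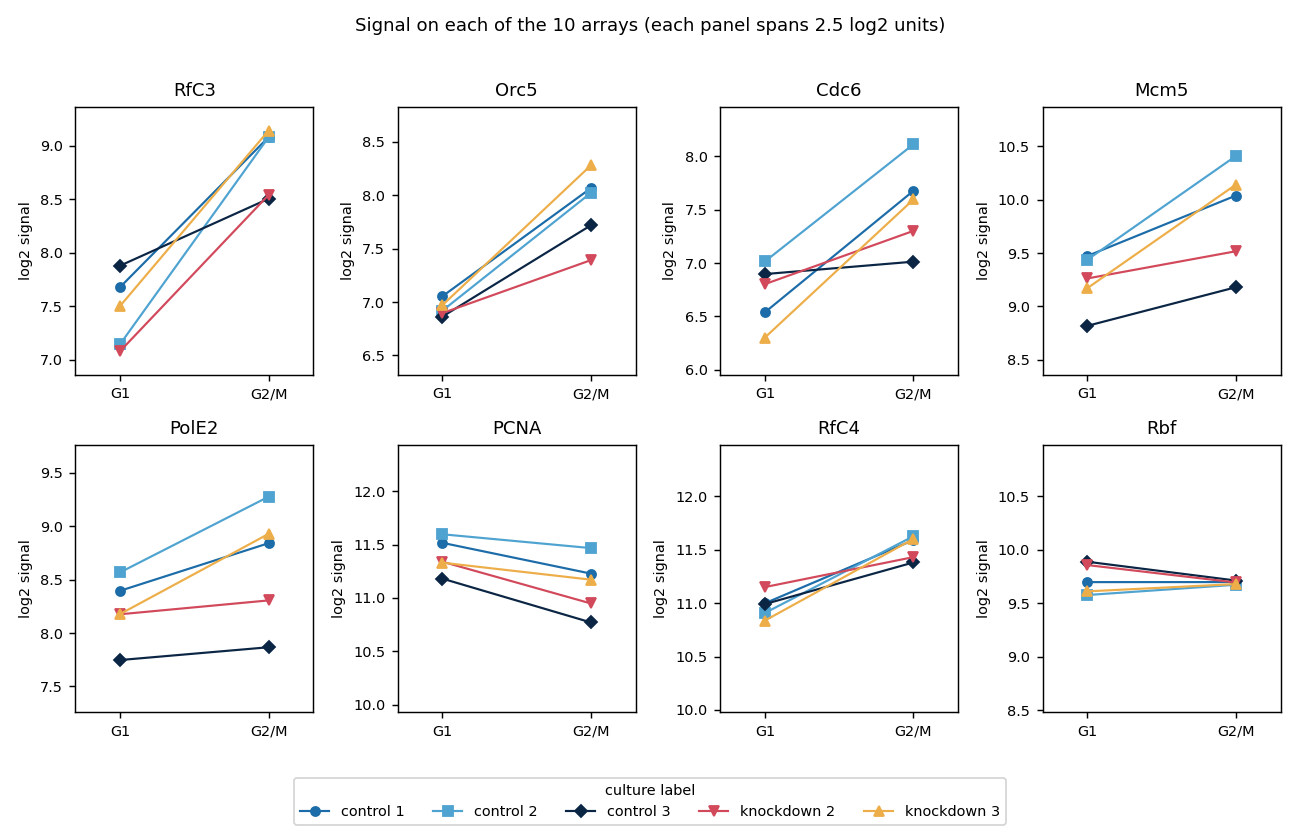
Log2 signal (y axis) of 8 replication genes on each of the 10 arrays, with a line joining the G1 and G2/M arrays of a culture. Lines rise steeply for RfC3, rise in every culture for RfC4, fall for PCNA and are nearly flat for Rbf, and the lines of control 3 and knockdown 2 rise less than the others for Orc5, Cdc6 and PolE2.

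Of 4 further fork proteins, Fen1 alone passed. The flap endonuclease gene Fen1 read 11.09, 10.78, 10.81, 10.86 and 10.96 in G1 and 11.29, 11.29, 10.91, 10.94 and 11.29 in G2/M, a rise of 0.25 ± 0.07 (SE) (adjusted p = 0.0442 in limma). It differed by 0.10 in control 3 and 0.09 in knockdown 2, and passed in 2 of the 5 fits without 1 culture. The gene ctf4, whose product links helicase and polymerase alpha, read 8.03, 8.04, 7.79, 7.95 and 7.83 in G1 and 8.37, 8.70, 7.73, 7.87 and 8.45 in G2/M. Its difference was 0.30 ± 0.12 (SE) (adjusted p = 0.126 in limma), positive in 3 cultures and slightly negative in control 3 and knockdown 2. The single-strand binding protein genes had opposite signs. RpA-70 was lower in G2/M in 5 of 5 cultures, by 0.18 on average (adjusted p = 0.0613 in limma), whereas RPA2 gave 0.24 (adjusted p = 0.141).

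None of the 3 measured regulators passed between phases. The repressive E2F gene E2f2 read 9.80, 9.88, 9.77, 9.86 and 9.63 in G1 and 9.95, 10.01, 9.86, 9.88 and 9.94 in G2/M, a difference of 0.14 ± 0.06 (SE) (adjusted p = 0.134 in limma). Dp, the partner of both fly E2F proteins, read 11.93, 11.70, 11.94, 11.89 and 11.85 in G1 and 11.99, 11.98, 11.90, 11.90 and 12.05 in G2/M, a difference of 0.10 ± 0.06 (SE) (adjusted p = 0.310 in limma). Rbf gave 0.00, 0.10, -0.18, -0.16 and 0.07 in the 5 cultures and -0.03 ± 0.06 (SE) on average (adjusted p = 0.771 in limma). E2f2 was higher in G2/M in 5 of 5 cultures, while Dp and Rbf moved in both directions.

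The size of the phase difference varied between cultures. The median over the 34 genes was 0.27, 0.64, 0.09, 0.07 and 0.60 in the 5 cultures, and 31, 32, 21, 25 and 32 of the 34 genes were higher in G2/M. Control 3 and knockdown 2 therefore had the smallest median differences. Of all probe sets, 55.7%, 54.8%, 53.5%, 45.7% and 49.6% were higher in G2/M in the 5 cultures. Their median lay between -0.02 and 0.03, and their median absolute difference was 0.145, 0.149, 0.142, 0.116 and 0.163. The MCM genes had medians of 0.46, 0.64, 0.15, 0.20 and 0.80, the clamp and loader genes 0.59, 0.72, 0.22, 0.28 and 0.68, and the polymerase and primase genes 0.25, 0.67, 0.10, 0.07 and 0.61. The mitotic genes had medians from 0.71 in knockdown 2 to 1.26 in knockdown 3, and they too were lowest in knockdown 2 and control 3. With 1 array per phase in each culture, the difference between cultures in the size of the phase difference could not be tested.

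**Figure D3:**
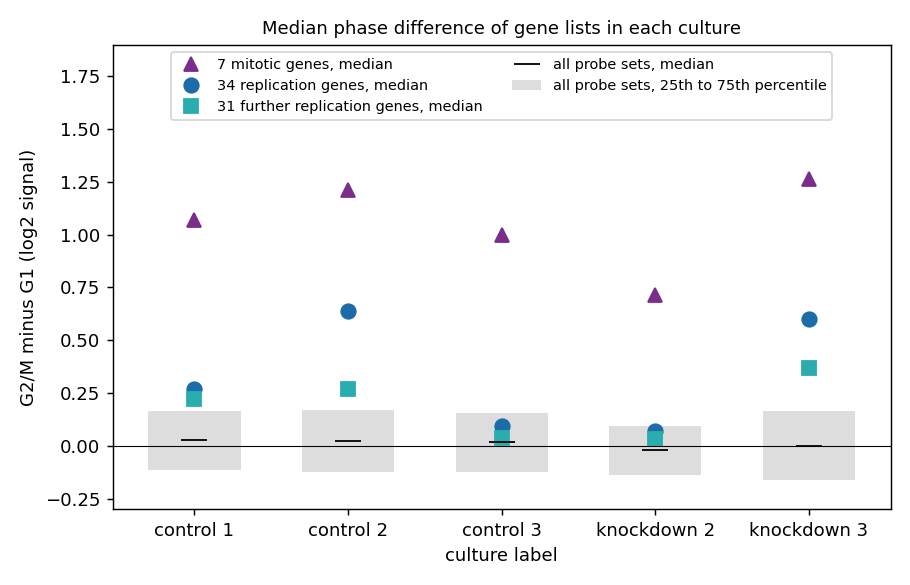
Median G2/M minus G1 difference (log2, y axis) of 3 gene lists in each culture (x axis), with grey bars for the middle range (quartiles) of all probe sets. The 34 replication genes have medians of 0.64 in control 2 and 0.60 in knockdown 3 but 0.09 in control 3 and 0.07 in knockdown 2, while the mitotic genes stay at 0.71 or above.

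In the 34 genes the cultures stood further apart in G2/M than in G1. Over all probe sets they did not. There the median absolute difference between 2 control arrays was 0.089 to 0.148 in G2/M and 0.130 to 0.176 in G1. Between the 2 knockdown arrays it was 0.130 in G2/M and 0.162 in G1. Relative to the mean of the 5 G2/M arrays, the 34 genes had medians of 0.15, 0.22, -0.35, -0.27 and 0.19, and 1, 2, 32, 32 and 2 of them lay below that mean. Relative to the mean of the 5 G1 arrays, the medians were 0.16, 0.02, -0.07, -0.04 and -0.04, and 5, 16, 25, 20 and 21 genes lay below. In G2/M nearly all genes were thus low in control 3 and knockdown 2 and high in the other cultures, whereas in G1 control 1 stood above the rest. Over all probe sets these medians stayed between -0.02 and 0.02. RMA equalises the arrays' distributions, so they had little room to move and are no yardstick for the 34 genes. The share of all probe sets below the mean of a phase was not counted. The pattern was not particular to the 34 genes. The mitotic genes had G2/M medians of -0.26 in control 3 and -0.32 in knockdown 2, with all 7 below the mean in both. Of 31 measured replication genes outside the list, 27 and 30 lay below it in these cultures. The cultures with low G2/M signals are those in which Slimp read 12.51 and 12.53 in G2/M. Of the germline markers, bam and vas were measured and nos was not. The summed germline signal (log2) was 8.25 to 9.76 in G2/M control and 8.59 to 9.59 in G2/M knockdown arrays, against 8.56 to 8.97 and 8.47 to 8.68 in G1, with vas between 4.40 and 4.85 on all arrays. The signal of bam was 8.88, 8.63, 8.46, 8.37 and 8.60 in G1 and 9.72, 9.47, 8.15, 8.50 and 9.54 in G2/M, which moved in the same cultures. The part of Slimp signal and of bam in the result was not tested.

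**Figure D4:**
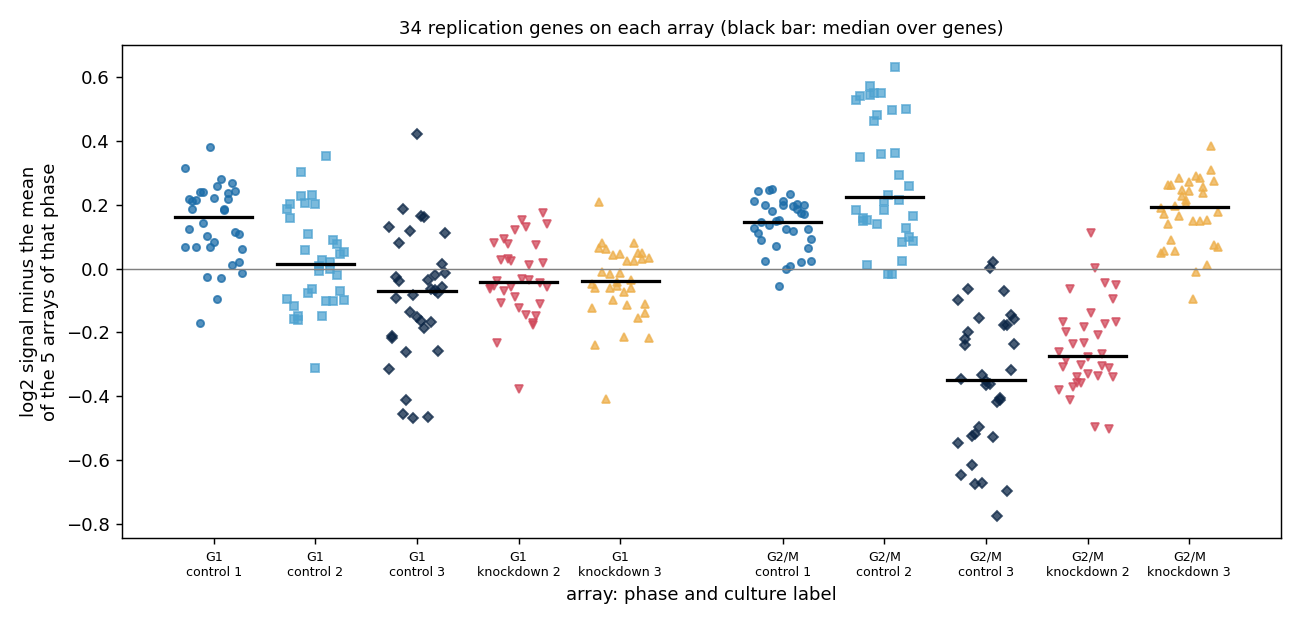
Log2 signal of each of the 34 replication genes on each array (x axis), minus the mean of the 5 arrays of that phase (y axis), with a black bar at the median over genes. In G2/M the bars sit at -0.35 in control 3 and -0.27 in knockdown 2 and between 0.15 and 0.22 in the other cultures, while in G1 they lie between -0.07 and 0.16.

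Levels averaged over both phases differed between cultures for 6 of the 34 genes in limma's F test of culture, at adjusted p under 0.05, against 11.5% of all probe sets. They were the polymerase and primase genes PolE1, PolE2, Prim1 and PolA2, with Mcm5 and PCNA. All 6 were lowest in control 3. Mean levels of PolE2 were 8.62, 8.92, 7.81, 8.24 and 8.55, a range of 1.11 or 2.16-fold between control 3 and control 2 (adjusted p = 0.0159 in limma). PolE1 had levels of 9.89, 10.03, 9.11, 9.42 and 9.77, a range of 0.92 (adjusted p = 0.0130). For Prim1 the levels were 7.51, 7.64, 6.67, 7.08 and 7.32, a range of 0.96 (adjusted p = 0.0163). In these 3 genes knockdown 2 lay next above control 3 and control 2 lay highest.

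PolA2 levels were 8.29, 8.38, 7.59, 7.80 and 8.06 (adjusted p = 0.0484 in limma), those of Mcm5 9.76, 9.92, 9.00, 9.39 and 9.66 (adjusted p = 0.0443) and those of PCNA 11.37, 11.53, 10.98, 11.14 and 11.25 (adjusted p = 0.0336). The order of cultures was the same in these 3 genes, from control 3 at the bottom through knockdown 2, knockdown 3 and control 1 to control 2. Over the 34 genes, 21 were lowest in control 3, 8 in knockdown 2 and 5 elsewhere, while 26.3% of all probe sets were lowest in control 3 and 17.1% in knockdown 2. Without control 3, limma called 0 of the 34 genes, with a smallest adjusted p of 0.0938. Genes at an unadjusted p under 0.05 numbered 17 with it and 16 without it, against 5092 and 4728 of all 18769 probe sets. The median range over cultures was 0.46 and 0.40, against 0.24 and 0.22 over all probe sets, and the fit without control 3 had fewer samples. RfC4 and RPA2 varied least, with ranges of 0.11 and 0.11 over the cultures. Each culture gave 1 G1 and 1 G2/M array, so this test compares these 5 cultures and not conditions.

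**Figure D5:**
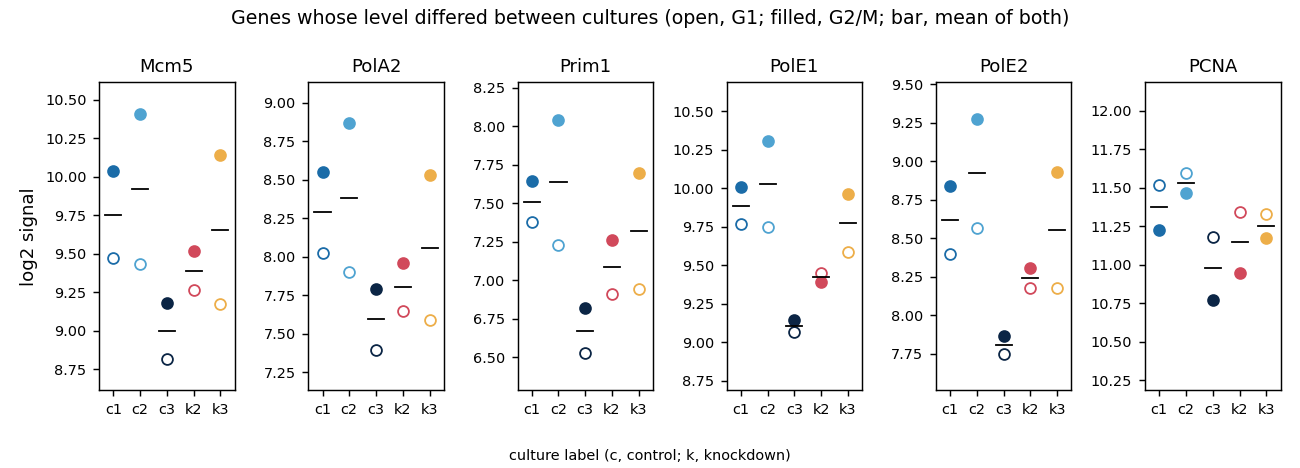
Log2 signal (y axis) in G1 (open circles) and G2/M (filled circles) of the 6 genes whose level differed between cultures (x axis), with a bar at the mean of both arrays. The bar of control 3 is the lowest in each panel, at 7.81 for PolE2 against 8.92 in control 2.

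By label, the phase comparison in libraries labelled control called RfC3 alone, at 1.32 ± 0.25 (SE) with an adjusted p of 0.0498 in limma, against 0.900% of all probe sets. RfC3 was not called without any 1 of the G1 control or G2/M control arrays of replicates 1 and 2, or without the G1 array of control 3. With culture as a paired block, 6 of the 34 genes rose in control, against 8.94% of all probe sets (4.51% higher and 4.43% lower): Orc5, Mcm5, Psf2, PolA2, RfC3 and RfC4. In libraries labelled knockdown limma called 0 of the 34 genes, with 5 at an unadjusted p under 0.05. Of all 18769 probe sets it called 0, with 1724 at that level. With the paired block RfC3 rose there by 1.55 ± 0.25 (SE, adjusted p = 0.0340 in limma), 1 of 34 against 1.68% of all probe sets (0.789% higher and 0.890% lower). The median difference over the 34 genes was 0.32 in control and 0.35 in knockdown libraries, but both values moved with single G2/M arrays. In control it was 0.15 without the G2/M array of control 2 and 0.57 without that of control 3. In knockdown it was 0.10 without the G2/M array of knockdown 3 and 0.56 without that of knockdown 2. The interaction, which tests whether the phase difference depended on the label, called 0 of the 34 genes in limma, with 0 at an unadjusted p under 0.05, and ran from -0.21 for RfC38 to 0.23 for RfC3. Its median over the 34 genes, knockdown minus control, was 0.00 with 17 positive. The median was 0.24 with 32 positive without the G2/M array of knockdown 2, and -0.23 with 3 positive without that of knockdown 3. It was 0.15 without the G2/M array of control 2 and -0.19 without that of control 3. Without the cultures labelled control 3 and knockdown 3 it was -0.38 with 0 positive, against -0.05 over all probe sets. Without control 3 and knockdown 2 it was 0.08 with 27 positive, against 0.01 over all probe sets. Fits without a knockdown array or culture left 1 knockdown library in a group, so only their effect sizes are given.

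Between libraries labelled knockdown and control, limma called 0 of the 34 genes in G1 and 0 in G2/M, with 0 at an unadjusted p under 0.05 in either phase, and 0 of all 18769 probe sets. In G1 the differences ran from -0.28 for RfC3 to 0.06 for Orc2 (log2), with standard errors between 0.09 and 0.39. In G2/M they ran from -0.18 for Orc1 to 0.10 for RPA2. Their median in G2/M was -0.05, and it was 0.17 without the array of knockdown 2, -0.30 without that of knockdown 3, 0.06 without that of control 2 and -0.23 without that of control 3. Since Slimp did not follow the labels, these values do not compare cultures by their Slimp signal. Without the cultures labelled control 3 and knockdown 3, the median in G2/M was -0.47 with 2 of the 34 genes positive, against -0.03 over all probe sets. Without control 3 and knockdown 2 it was -0.03 with 12 positive, against -0.03 over all probe sets. In both fits the 1 remaining knockdown library was assumed to vary like the others.

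Replication genes outside the list were also examined. Of 35 such genes 31 were measured, and 12 rose and 0 fell between phases over the 5 cultures, with a median of 0.22 (log2). Over all probe sets 10.3% rose and 9.00% fell. Dref, a transcription factor that binds promoters of many fly replication genes, rose 1.53-fold (0.62 ± 0.08 (SE), adjusted p = 0.00151 in limma), with 0.85, 0.67, 0.37, 0.42 and 0.78 in the 5 cultures. The polymerase delta subunit PolD2 rose 1.62-fold (0.70 ± 0.11 (SE), adjusted p = 0.00275). Cdk2, the kinase that works with cyclin E at S-phase entry, rose 1.55-fold (0.63 ± 0.10 (SE), adjusted p = 0.00350). The gene mip40, which encodes a subunit of the Myb complex with E2f2 and Rbf, rose 1.25-fold (0.32 ± 0.06 (SE), adjusted p = 0.00660). In 6 of the 31 genes every G2/M array lay above every G1 array, which held for 6.01% of all probe sets. Dref, PolD2, Cdk2 and mip40 were among the 6, but they were picked by their small p in this contrast. Of the 31 genes, 19 did not pass. Their medians by culture were 0.22, 0.27, 0.04, 0.03 and 0.37, again smallest in control 3 and knockdown 2.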

How the data were processed

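Each array gave 1 log2 signal per probe set, deposited by the authors after RMA according to the submitters' processing notes. Its version is not given in the sources used here. The method equalises the arrays' distributions, which hides any shift common to nearly all transcripts. Array medians ran from 6.55 to 6.61, and the number of arrays limits precision. After removal of 183 array controls from 18952 probe sets, 18769 were tested with no intensity filter. Of these, 13647 carried 1 gene symbol, 402 carried several and 4720 carried none, and RefSeq gene identifiers (Release 6) updated 13544 of the symbols.

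Models were fitted with limma 3.58.1 in R 4.3.3 and tested on simulated data, with Benjamini-Hochberg adjustment over all 18769 probe sets and a threshold of 0.05. Each simulation changed 200 of 18769 probe sets. Of simulated phase changes of 0.5 (log2), the fit over 5 cultures recovered 74.0% and the phase contrast in control 0%. For changes of 1 (log2) the shares were 97.5% and 84.5%. In the data the fit over 5 cultures called 3623 probe sets, so these shares need not hold there. Few calls by label therefore do not show that small changes were absent. The phase contrast over 5 cultures had culture as a fixed block, and the F test of culture used the same model (residual df 4). Contrasts by label came from 1 model of 4 groups without a block (residual df 6). To check the pairing, deviations from group means were correlated over probe sets. They were 0.514 to 0.685 within control cultures and 0.655 within knockdown cultures, where 2 arrays per group make both values equal. Some arrays of different cultures also passed 0.1, up to 0.517, so the check alone does not show the pairing. Whether replicates were separate cultures is not stated, so the p-values cover only the spread seen among these samples, and that spread may be technical.

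Every measured member is named, with every array value for those past the threshold in any contrast and for the leading members of each class, and up to 4 further replication genes with the smallest p are given. The members, classes and lists were chosen with earlier results of these data known. Alternatives were cyclic loess, leaving out the 33.3% of probe sets with the lowest mean, averaging probe sets per gene, a trend in the prior variance, other blocks, and leaving out arrays or cultures. No sequence was printed, and promoter motifs were not analysed here.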

Additional observations from a re-analysis of the deposited data

Results flagged for a closer look

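The mean level of Cdc6 in the culture labelled control 2 was 7.56 (log2), while the other cultures lay between 6.95 and 7.11, a gap of 0.742 of the whole range against a limit of 0.71. It was the only such gap among 68 sets of 5 values examined, the phase differences and the levels of the 34 genes, and chance flags about 1 in 20 such sets. The F test of culture did not call Cdc6 (adjusted p = 0.385 in limma).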

How the results depend on the processing

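For the phase contrast over 5 cultures, limma called 3623 probe sets and 19 of the 34 genes. Without the replicate block it called 979 and 4, with the block 3623 and 19. Without the cultures labelled control 3 and knockdown 3 it called 1586 and 8, and leaving out 1 culture gave 2189 to 3414 probe sets and 13 to 20 genes. Estimates of the 34 genes kept their sign under every scaling, filter and prior tried. When 1 culture was left out, CDC45L ranged from -0.00221 to 0.10 and Rbf from -0.0675 to 0.000491, and Rbf was 0.055 without control 3 and knockdown 2. None of these was called.

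For the phase contrast in control the counts were 169 probe sets and 1 gene. Culture as a replicate block gave 1678 and 6, and leaving out the 33.3% of probe sets with the lowest mean 257 and 3. Cyclic loess gave 220 and 2, and averaging per gene gave 209 of 11983 and 3. Leaving out control 3 with either knockdown culture gave 481 and 5. Leaving out 1 array gave 0 to 166 probe sets and 0 to 2 genes, with 1879 to 2846 probe sets at an unadjusted p under 0.05. In knockdown the counts were 0 and 0. They were 315 and 1 with culture as a replicate block, 2 probe sets with cyclic loess or averaging per gene, and 3 without control 3 and knockdown 2. The interaction gave 0 calls with and without the block.

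Between labels, limma called 363 probe sets in G1 and 131 in G2/M without control 3 and knockdown 3, and 0 genes of the 34 in both. With replicate number as a replicate block it called 0 in each phase, with 370 and 218 at an unadjusted p under 0.05. Arrays of the 2 labels with the same number correlated at -0.661 to -0.412 after removal of group means, so numbers do not pair the labels.

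For culture level the counts were 2165 probe sets and 6 genes. A trend in the prior variance gave 3297 and 13. Leaving out 1 culture gave 1188 to 1801 probe sets and 0 to 7 genes, with 0 genes only without control 3. Settings added after the data were seen gave 816 and 0 without control 3 and knockdown 3, and 0 and 0 without control 3 and knockdown 2, where 2626 probe sets and 4 genes had an unadjusted p under 0.05. Why these counts moved was not tested, and fits without cultures have fewer samples.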
